A study of Mus musculus with 6 samples.

Results

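The nuclear genes of oxidative phosphorylation were followed in RNA that co-precipitated with Ago2, the miRNA-holding core of the RNA-induced silencing complex (RISC). They were taken by name from the protein-coding genes of GENCODE M21 on GRCm38 (mm10): symbols that start with Nduf, Uqcr, Cox4, Cox5, Cox6, Cox7, Cox8 or Atp5, together with Sdha, Sdhb, Sdhc, Sdhd and Cyc1. The rule gave 95 genes with 94 symbols, because Atp5o has 2 gene models, out of 21938 protein-coding genes on nuclear chromosomes. They fell into 38 genes named for complex I subunits, 8 complex I assembly factors (Ndufaf), 4 of complex II, 9 of complex III, 18 of complex IV and 18 of complex V. The rule used names only and no measured value. It also took in genes that are not fixed subunits, such as the assembly factors and Cox7a2l. Genes were placed in complexes by name alone, so Ndufa4 and Ndufa4l2 were counted with complex I whether or not their proteins belong to it.

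Complexes I and II pass electrons from NADH and succinate to complex III, which hands them through cytochrome c to complex IV, and complex V makes ATP from the proton gradient that complexes I, III and IV build. Most subunits are encoded in the nucleus by short, widely expressed genes and imported into mitochondria, and the rest are encoded by mitochondrial DNA. In skeletal muscle the system supplies oxidative fibers, and several complex IV subunits have an isoform that replaces the widespread one in heart and skeletal muscle.

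Primary mouse satellite cells (MSC), the progenitors of skeletal muscle, were kept in differentiation medium for 30 h, transfected as myocytes with a miR-222 or a siGFP duplex, and lysed 16 h later for immunoprecipitation with anti-Ago2. The labels give 10 nM duplex, whereas the study's methods give another concentration. The first experiment held control-IP 1, control-IP 2 and miR-222-IP 1, and the second held control-IP 3, control-IP 4 and miR-222-IP 2. Nothing in the labels says whether libraries of the same experiment came from separate cultures, so p-values measure only the spread between these libraries, which may be technical.

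Each library was available as a list of macs2 peaks with −log10 p over 20. The score of a gene in a library is the highest −log10 p among peaks that overlap its exons by at least 1 bp. A score rises with enrichment and with sequencing depth, which these lists do not give for each library, and is not an abundance, so levels of different genes are not ranked as amounts of RNA. The 5 lists of narrow peaks held 10579 to 37762 peaks, the fewest in control-IP 1 and the most in miR-222-IP 2, with highest scores near 350 in each. Control-IP 3 held wide peaks on 10 chromosomes and was kept apart. The label was checked against markers: 12 of 12 skeletal muscle genes had a peak, 8 of them in all 5 libraries, and their summed score was 349 to 565 in the other 4 libraries and 1737 in miR-222-IP 2. Macrophage and leukocyte markers had peaks in 5 of 5 genes, 4 of them in all 5 libraries, with a summed score of 654 to 778. Of the fibroblast markers 2 of 6 had a peak, with Dpt, Lum, Dcn and Pi16 at none, of the endothelial markers 2 of 5, of the glial markers 3 of 4 and of the adipocyte markers 0 of 4. Oxidative phosphorylation genes are expressed in all these cell types, in bulk RNA fewer cells of a type and less RNA per cell cannot be told apart, and the part of each cell type in the values below was not tested.

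Peaks over oxidative phosphorylation genes were common. An exonic peak was found in at least 1 of the 5 libraries for 82 of the 95 genes (86.3%), where 46.9% of all protein-coding genes had one. All 5 libraries had a peak in 59 genes (62.1%), against 19.0% of all protein-coding genes. The other 23 genes with a peak had it in 1 to 4 libraries, and 13 genes had none.

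By library, 60 of the 95 genes (63.2%) had a peak in control-IP 1, where 21.4% of all protein-coding genes did. The count was 76 (80.0%) in control-IP 2 against 34.8% of all genes, and 70 (73.7%) in control-IP 4 against 29.8%. In the miR-222-IPs it was 72 (75.8%) against 33.2% in miR-222-IP 1, and 82 (86.3%) against 44.7% in miR-222-IP 2. The order of the libraries was the same for these genes as for all protein-coding genes. Every one of the 82 genes was called in miR-222-IP 2, whereas control-IP 1 lacked a peak in 22 of them.

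No oxidative phosphorylation gene had a peak in both miR-222-IPs and in no control-IP (0 of 95), a pattern of 1.47% of all genes. None had a peak in all 3 narrow-peak control-IPs and in no miR-222-IP, a pattern that no protein-coding gene showed (0%). A peak in miR-222-IP 2 alone was found in 5 of the 95 genes, where 6.62% of all protein-coding genes had one. They are Ndufa6, Ndufb4, Ndufaf4, Cox6a2 and Atp5s, named after their values were seen, with scores of 36.9, 47.2, 34.6, 71.8 and 26.4.

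**Figure D1:**
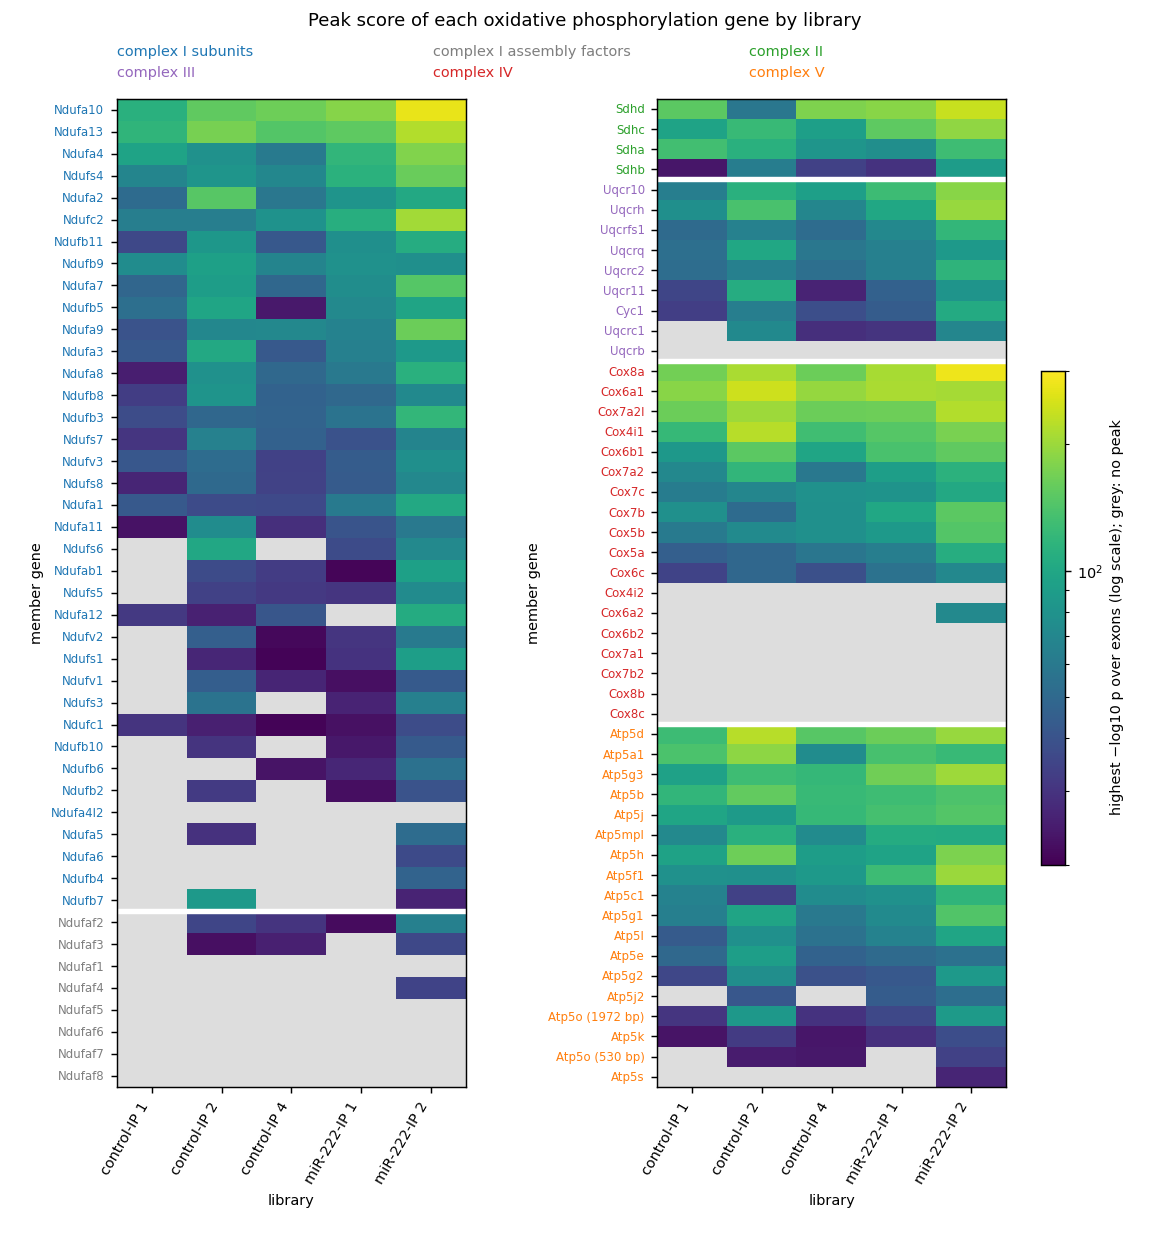
Heat map of the highest −log10 p over the exons of 94 of the 95 genes (rows, grouped and colored by complex) in each of the 5 narrow-peak libraries (columns), on a logarithmic color scale. Grey cells have no peak. Complexes II and V have a peak for every gene, whereas 6 complex IV genes and 5 assembly factors are grey throughout.

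The share with a peak was higher than among other genes in each class of exonic length. Oxidative phosphorylation genes are short, with a median of 1569 exonic bp against 3509 bp in other protein-coding genes. Among genes of up to 1 kb, 72.0% of 25 oxidative phosphorylation genes had a peak, against 15.3% of 1913 others. From 1 to 2 kb the shares were 86.1% of 36 and 26.7% of 3656, from 2 to 4 kb 95.7% of 23 and 42.9% of 6802, and over 4 kb 100% of 11 and 63.5% of 9472. Among the others the share rose with length. Scores also lay above the middle of the called genes, with median percentiles of 69.0, 72.7 and 60.8 in control-IPs 1, 2 and 4 and of 67.4 and 72.0 in miR-222-IPs 1 and 2.

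**Figure D2:**
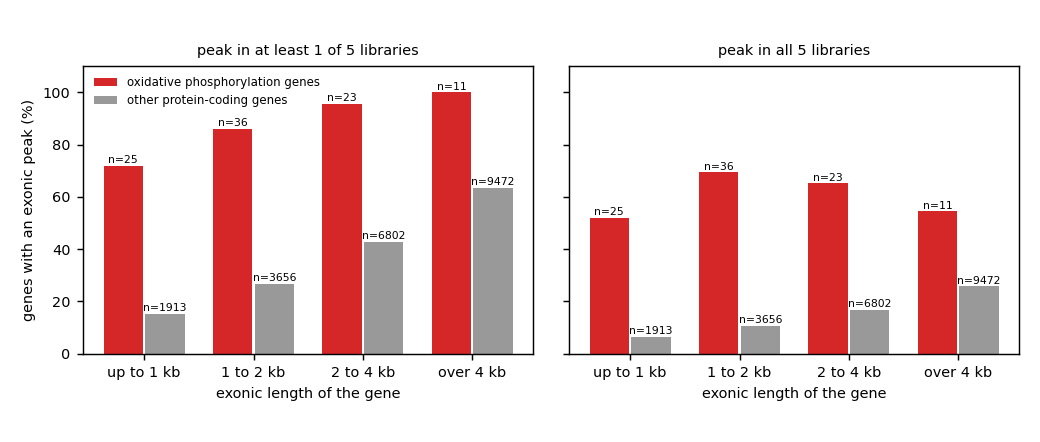
Share of genes with an exonic peak (%) by exonic length, for oxidative phosphorylation genes (red) and other protein-coding genes (grey), in at least 1 library (left) and in all 5 (right). In each length class the red bar is the higher, at 72.0% against 15.3% in at least 1 library for genes of up to 1 kb.

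Other gene groups of basic metabolism and translation were also frequent among the called genes. All 5 libraries had a peak in 75 of 83 genes of cytosolic ribosomal proteins (90.4%), 11 of 19 glycolysis genes (57.9%), 8 of 14 tricarboxylic acid cycle genes (57.1%) and 25 of 78 genes of mitochondrial ribosomal proteins (32.1%). Among 38 further assembly factors with cytochrome c, 32 had a peak in at least 1 library and 6 in all 5. Of 12 genes of mitochondrial biogenesis, 10 had a peak in at least 1 library and 3 in all 5, and the coactivators Ppargc1a and Ppargc1b had none. The high share of the oxidative phosphorylation genes was therefore not particular to them.

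Complex I oxidizes NADH. Of the 38 genes named for its subunits, 37 had a peak in at least 1 library and 22 in all 5. The highest scores, scaled between libraries, belonged to Ndufa10, Ndufa13 and Ndufa4. Ndufa10, an accessory subunit, scored 112, 154 and 165 in control-IPs 1, 2 and 4, and 183 and 274 in miR-222-IPs 1 and 2. Ndufa13, an accessory subunit also known as Grim19, scored 118, 171 and 145 in the control-IPs, and 153 and 220 in the miR-222-IPs. Both genes were lowest in control-IP 1 and highest in miR-222-IP 2, and the single miR-222-IP of the first experiment lay above both controls for Ndufa10 and between them for Ndufa13. Ndufs1, the largest subunit of the complex, had no peak in control-IP 1, scores of 26.8 and 20.6 in control-IPs 2 and 4, and 29.7 and 91.1 in the miR-222-IPs. Ndufv1, which holds the NADH site, was likewise absent in control-IP 1 and scored 45.1 and 26.6 in control-IPs 2 and 4, and 22.4 and 43.3 in the miR-222-IPs. These catalytic genes were named after their values were seen, and Ndufa10 for its high score. Catalytic and accessory subunits are therefore not compared here.

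Of the assembly factors of complex I, which help to build it without staying in it, 3 of 8 had a peak and none had one in all 5 libraries. Ndufaf2 scored 35.1 and 29.9 in control-IPs 2 and 4, and 21.6 and 65.0 in miR-222-IPs 1 and 2. Ndufaf3 scored 22.2 and 25.3 in control-IPs 2 and 4, and 35.9 in miR-222-IP 2. Ndufaf4 had a peak in miR-222-IP 2 alone, and Ndufaf1, Ndufaf5, Ndufaf6, Ndufaf7 and Ndufaf8 had none. Whether the shares of subunits and assembly factors differ was not tested.

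Complex II, succinate dehydrogenase, had a peak for all 4 genes in all 5 libraries. Sdhd, a membrane anchor, scored 152, 58.6 and 177 in control-IPs 1, 2 and 4, and 185 and 240 in the miR-222-IPs. Sdhc, the other anchor, scored 96.5, 125 and 92.0, and 154 and 190. Sdha, the flavoprotein that oxidizes succinate, scored 133, 111 and 82.3, and 76.5 and 129. Sdhc was higher in both miR-222-IPs than in every control-IP before scaling. Without scaling, 46.1% of all genes fitted lay above the control-IPs of their own experiment in both miR-222-IPs, which is a looser order. Sdhd was low in control-IP 2, and Sdha was lowest in miR-222-IP 1, with overlapping groups.

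Complex III, which oxidizes ubiquinol, had a peak for 8 of 9 genes and in all 5 libraries for 7, with Uqcrb at none. Uqcrh, the hinge protein, scored 76.7, 138 and 69.4 in control-IPs 1, 2 and 4, and 101 and 199 in the miR-222-IPs, with a peak that also covers exons of the processed pseudogene Gm12854. Uqcr10, a small subunit, scored 63.5, 112 and 92.6, and 127 and 186. Uqcrfs1, the Rieske iron-sulfur protein, scored 51.1, 65.7 and 52.2, and 70.4 and 120. Uqcr10 and Uqcrfs1 were higher in both miR-222-IPs than in all 3 control-IPs before scaling, whereas for Uqcrh control-IP 2 lay above miR-222-IP 1. By the looser order within experiments, 46.1% of all genes fitted were above their control-IPs before scaling. After scaling, the log2 differences of Uqcr10 were 0.27 and 0.26 in the 2 experiments and those of Uqcrfs1 -0.04 and 0.45.

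Complex V, ATP synthase, had a peak for all 18 genes and in all 5 libraries for 15. Atp5a1 and Atp5b encode the alpha and beta subunits of the catalytic head, and Atp5d the delta subunit of its stalk. Atp5d scored 127, 223 and 149 in control-IPs 1, 2 and 4, and 163 and 198 in the miR-222-IPs. Atp5a1 scored 139, 190 and 74.4, and 136 and 124. Atp5b scored 118, 157 and 124, and 129 and 140. For these 3 genes control-IP 2 held the highest score and the groups overlapped. The 3 genes of the membrane ring, Atp5g1, Atp5g2 and Atp5g3, which encode the same mature protein, each had a peak in all 5 libraries. Atp5g3 scored 94.7, 130 and 121, and 167 and 201. Atp5g1 scored 64.7, 97.5 and 59.5, and 73.2 and 143. Atp5g2 scored 35.5, 76.5 and 39.0, and 42.3 and 86.3. Among these paralogs Atp5g3 was highest and Atp5g2 lowest in every library, and how reads of near-identical sequence were placed among them is not known from the lists.

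Complex IV, cytochrome c oxidase, had a peak in 12 of 18 genes, and 11 of the 12 had one in all 5 libraries. Its genes split by isoform. Cox6a1, the widespread form of its subunit, scored 186, 244 and 196 in control-IPs 1, 2 and 4, and 213 and 208 in the miR-222-IPs. Cox6a2, the heart and muscle form, had a peak in miR-222-IP 2 alone, with a score of 71.8. Cox6a1 was thus at 186 or more in every library, whereas Cox6a2 was under the threshold of 20 in 4 of 5.

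The same split was seen in the other subunits with a striated muscle form. Cox8a, the widespread form, scored 168, 213 and 163, and 210 and 279, while Cox8b, the heart and muscle form, and Cox8c had no peak. Cox7a2 scored 70.6, 119 and 59.0, and 90.8 and 113, and Cox7a1, the heart and muscle form, had no peak. Cox7a2l, which helps to join complexes into supercomplexes, scored 163, 202 and 163, and 164 and 219. Peaks were therefore present over the widespread gene in all 5 libraries and over the muscle gene in 0 or 1. Of the 12 muscle markers 8 had peaks in all 5, and Myog, like Cox6a2, had a peak in miR-222-IP 2 alone. That library had a summed muscle marker score of 1737, against 349 to 565 in the others. The part of muscle cell content in these isoform scores was not tested. The exonic lengths were 680 bp in Cox6a2 and 702 bp in Cox6a1, 360 bp in Cox8b and 619 bp in Cox8a, and 535 bp in Cox7a1 and 944 bp in Cox7a2. The muscle gene is the shorter in each pair, and the part of length was not tested.

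Isoforms of other tissues and conditions were also without peaks. Cox4i1 scored 122, 223 and 131 in control-IPs 1, 2 and 4, and 148 and 175 in the miR-222-IPs, and Cox4i2, known from lung and hypoxia, had none. Cox6b1 scored 85.0, 151 and 98.2, and 138 and 155, and Cox6b2, a testis form, had none. Cox7b scored 77.6, 51.6 and 78.3, and 100 and 152, and Cox7b2, also a testis form, had none. Ndufa4 scored 96.7, 79.0 and 60.2, and 119 and 179, and its hypoxia-induced relative Ndufa4l2 had none. For Cox5a and Cox5b, which are 2 different subunits and not isoforms, scores were 45.4, 49.2 and 57.8, and 63.8 and 108 for Cox5a, and 60.6, 73.1 and 77.9, and 85.8 and 145 for Cox5b. Both Cox5 genes, like Cox7b and Ndufa4, were higher in the miR-222-IPs than in any control-IP before scaling, with miR-222-IP 2 at the top. The 46.1% of all genes given above is for a looser order, within experiments, and the share of all genes with this stricter order was not counted. After scaling, miR-222-IP 1 lay between control-IPs 1 and 2 for Cox5a, Cox5b, Cox7b and Ndufa4. For the same genes miR-222-IP 2 stayed above control-IP 4.

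**Figure D3:**
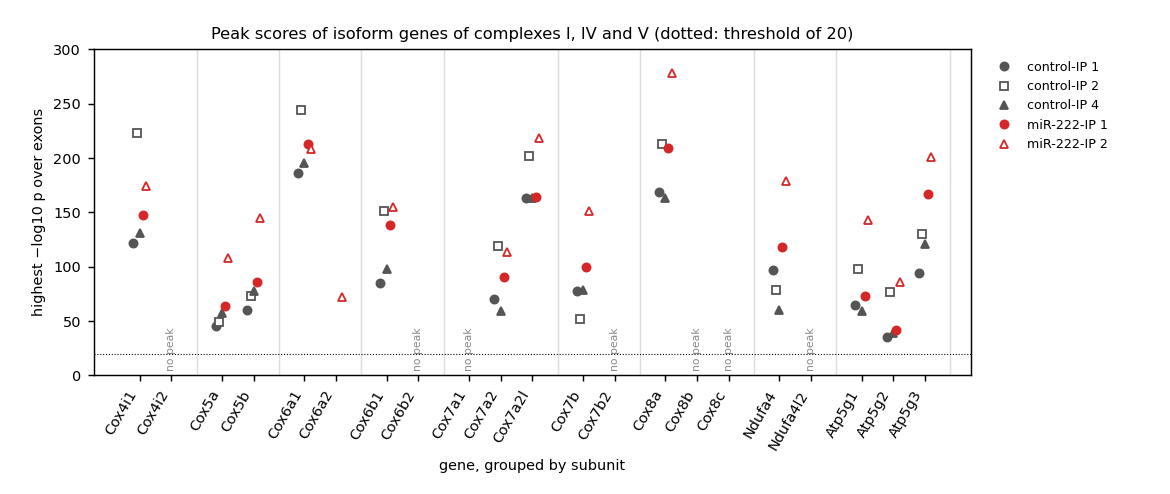
Highest −log10 p over exons (vertical axis) of the isoform genes and the Cox5 pair, with control-IPs in grey and miR-222-IPs in red and 1 symbol per library. The dotted line is the threshold of 20. Cox6a1 lies between 186 and 244, Cox6a2 has a single point at 71.8, and Cox4i2, Cox6b2, Cox7a1, Cox7b2, Cox8b, Cox8c and Ndufa4l2 have no peak.

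Of the 13 subunit genes of mitochondrial DNA, 10 had no peak, and mt-Cytb, the cytochrome b of complex III, was the only one with a peak in all 5 libraries. It scored 29.1, 42.8 and 39.2 in control-IPs 1, 2 and 4, and 23.7 and 23.3 in the miR-222-IPs. Both miR-222-IPs were thus below all 3 control-IPs, before scaling. mt-Nd5 and mt-Nd6, which overlap on opposite strands, shared a peak of 22.4 in control-IP 2 and 25.4 in control-IP 4, and no strand is given for these peaks.

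Peaks spread over much of the length of these transcripts. After merging the peaks of the 5 libraries, 255 intervals lay over exons of the 82 genes, with a median width of 327 bp. More than 1 interval was present in 68 genes and a single one in 14, up to 9 in 1 gene, whereas 34.3% of the other genes with a peak had a single interval. The median gene had 45.0% of its exonic bases under peaks (interquartile range 30.9% to 60.7%), against 28.6% in other genes with a peak. Without miR-222-IP 2 the values were 36.4% and 22.7%. For genes of up to 1 kb the medians were 81.4% and 67.4%, but from 1 to 2 kb they were 45.8% and 46.5%, from 2 to 4 kb 36.4% and 35.3%, and over 4 kb 19.3% and 23.1%.

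Coding sequence was covered most. In the 82 genes, peaks covered 74.1% of coding bases, 35.9% of 3'UTR bases and 19.5% of 5'UTR bases. In the 10204 other genes with a peak the shares were 36.0%, 38.0% and 11.8%. In these merged peaks the coding and 5'UTR shares were above those of other genes, and the 3'UTR share was slightly below. In single libraries the 3'UTR shares were 23.1% against 12.2% of the others in control-IP 1, 27.7% against 16.3% in control-IP 2 and 24.2% against 18.2% in control-IP 4. They were 26.5% against 22.5% in miR-222-IP 1 and 34.8% against 35.2% in miR-222-IP 2. By this measure the 3'UTR share was above that of other genes in 4 of 5 libraries. The measure counts all bases of the 82 and 10204 genes, called in that library or not. In control-IP 1, 60 and 4630 of them were called. Among covered coding and UTR bases alone, the 3'UTR part was lower in these genes in each of the 5 libraries. It was 29.5% to 36.7%, against 49.7% to 58.8% in the others. Of all coding and UTR bases, covered or not, 40.5% were 3'UTR in these genes and 45.7% in the others. Of 257 pairs of a gene and an interval, 162 touched coding bases without 3'UTR bases, 84 touched both, 7 touched 3'UTR bases alone and 4 touched neither. Along the spliced transcript, mean coverage rose from 23.9% in the first 5% to 82.2% between 60% and 65%, and fell to 61.8% at the 3' end.

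**Figure D4:**
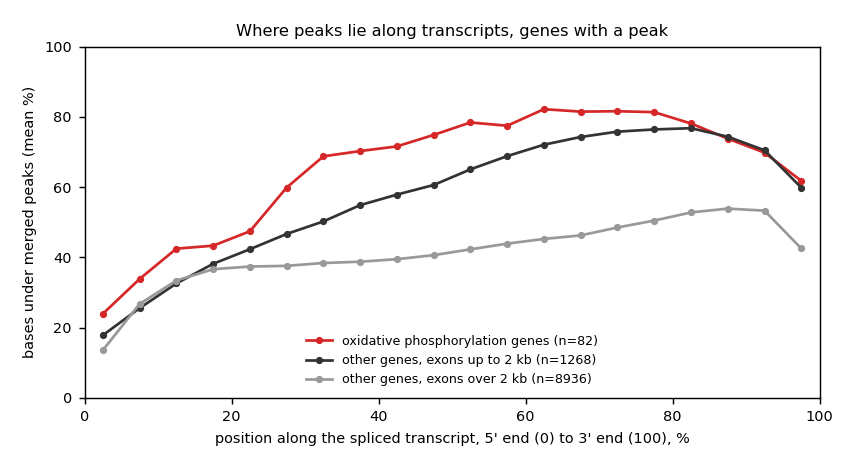
Mean share of bases under merged peaks (%) along the spliced transcript, in 20 equal steps from the 5' end (0) to the 3' end (100), for the 82 oxidative phosphorylation genes with a peak and for other genes with a peak in 2 length classes. The red line lies above the others over most of the transcript and meets that of short genes near the 3' end.

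The best intervals of several genes join the last coding bases to the 3'UTR. For Cox6a1 the interval chr5:115345603-115346028 (GRCm38) spans 426 bp with 84 coding and 201 3'UTR bases, and a second interval, chr5:115348453-115349015, covers 255 coding and 31 5'UTR bases, so that 100% of the exonic bases are under peaks. The Cox8a interval chr19:7215142-7215578 holds 96 coding and 236 3'UTR bases. A single interval of 907 bp, chr9:50596337-50597243, carries all peaks of Sdhd, with 159 coding and 728 3'UTR bases. For Cox6a2 the only interval, chr7:128205539-128206403, spans 865 bp with 294 coding and 190 3'UTR bases. All 4 genes are thus covered across the stop codon.

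The study asked which RNAs joined RISC when miR-222 was added, so the peaks were searched for its seed match. The mature sequences are shown with the seed, bases 2 to 8 from the 5' end, in capitals. They are from RefSeq (GRCm38.p6), and the related miR-221, the muscle miRNA miR-206 and the widespread let-7a are given because their matches were counted as well.
miR-222-3p: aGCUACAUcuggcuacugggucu
miR-221-3p: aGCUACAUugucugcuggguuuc
miR-206-3p: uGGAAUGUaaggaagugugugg
let-7a-5p: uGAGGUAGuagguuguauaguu
miR-222 and miR-221 have the same seed, so a match cannot tell them apart.

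No oxidative phosphorylation gene had a full seed match for miR-222 under a peak. The 7-mer ATGTAGC, on the strand of the gene, was in 0 of 82 genes, within 64.6 kb of exonic sequence under peaks. With 3 sites taken as the upper limit for a count of 0, up to 4.64 sites per 100 kb are allowed. Among the other genes with a peak this 7-mer was in 720 of 10204 (7.06%), at 5.06 sites per 100 kb. The 6-mer TGTAGC, which lies within it, was in 9 genes (11.0%) against 26.1% of the others. The 7-mer TGTAGCA, the 6-mer followed by A, was in 3 genes (3.66%) against 9.03%. The other genes have more sequence under peaks. Per 100 kb the 6-mer occurred 17.0 times in these genes and 22.3 times in the others, and the 6-mer with A 4.64 and 6.42 times. These rates were not adjusted for the smaller 3'UTR part among the covered bases of these genes.

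Outside peaks the full 7-mer was present. All exonic bases of the 95 genes held 10 sites in 6 genes: Atp5h, Atp5j2, Atp5l, Ndufb2, Ndufs1 and Ndufv3. Only the 3 sites of Ndufb2 lie in an annotated 3'UTR, and the other 7 lie in exonic bases that only non-coding transcripts of the gene hold. The Ndufb2 sites are shown because no library had a peak over them; the nearest peak ends 415, 902 and 1067 bp away. They are on the plus strand of chromosome 6, with the site in capitals, in windows chr6:39599952-39599980, chr6:39600439-39600467 and chr6:39600604-39600632.
Ndufb2 site 1: agtctggtgtgATGTAGCttgagtactta
Ndufb2 site 2: tgcgacactggATGTAGCttgagcattgg
Ndufb2 site 3: aatcacagatgATGTAGCtgtactgagta
Ndufb2, an accessory subunit of complex I, had peaks over other exonic bases in control-IP 2 (31.8), miR-222-IP 1 (22.2) and miR-222-IP 2 (40.1), and none in control-IPs 1 and 4.

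The 7-mer with A was under peaks of Ndufb3, Atp5mpl and Atp5a1. In Ndufb3, an accessory subunit of complex I, it lies in the 3'UTR at chr1:58595842-58595870 on the plus strand. In Atp5mpl, a small subunit of complex V, it lies in the 5'UTR at chr12:111966949-111966977 on the minus strand. Both windows are shown with the site in capitals.
Ndufb3: gattctctcacTGTAGCAttcttggctgt
Atp5mpl: ctttcccattcTGTAGCAgaatttggtgt
The Ndufb3 peak scored 37.6, 49.5 and 47.5 in control-IPs 1, 2 and 4, and 56.2 and 121 in the miR-222-IPs. It was called in all 5 libraries, with the miR-222-IPs highest before scaling, and the scaled log2 difference of the gene was 0.29 (SE 0.35, limma adjusted p = 0.998). The Atp5mpl peak over the site was called in the miR-222-IPs alone, at 23.8 and 20.1, both just above the threshold. The score of that gene, which comes from another interval, differed by -0.14 (SE 0.34, limma adjusted p = 0.998). In Atp5a1 the site lies in the 3'UTR, under a peak called in all 5 libraries. That peak scored 139, 190 and 74.4 in control-IPs 1, 2 and 4, and 136 and 124 in the miR-222-IPs, with overlapping groups. The scaled log2 difference of Atp5a1 was -0.34 (SE 0.35, limma adjusted p = 0.998).

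Matches of let-7a (7-mer CTACCTC) were under peaks of 4 genes (4.88%), Cox5b and Ndufa10 among them, against 10.8% of the others, or 6.19 sites per 100 kb under peaks against 7.88. Matches of miR-206 (7-mer ACATTCC) were in 2 genes (2.44%), Atp5a1 and Ndufaf4, against 9.99%, or 4.64 sites per 100 kb against 7.28. The let-7a sites of Cox5b and Ndufa10 are shown as examples in coding sequence, at chr1:36692455-36692483 on the plus strand and chr1:92452057-92452085 on the minus strand.
Cox5b: catacaatatgCTACCTCcaaaggcagct
Ndufa10: accattccggtCTACCTCccagaaatcac
The Ndufa10 interval with this site was called in all 5 libraries, at 53.0, 39.0 and 75.8 in control-IPs 1, 2 and 4, and 74.3 and 124 in the miR-222-IPs. The Cox5b peak over its site was called in control-IP 1 (23.3), miR-222-IP 1 (28.9) and miR-222-IP 2 (37.3). Each match is a description of the sequence and not evidence of binding.

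Differences between miR-222-IP and control-IP were fitted with limma on log2 scores, with experiment as a term, for 4159 genes with a peak in all 5 libraries. Scores were scaled by the median of ratios. Before scaling, miR-222-IP 2 held the highest score for 42 of the 59 oxidative phosphorylation genes in the fit (71.2%), and for 71.5% of all genes fitted. No gene passed an adjusted p of 0.05 in either direction, so 0 of 59 were called where 0% of all genes were. At an unadjusted p under 0.05 there were 61 genes (1.47%), none of them from oxidative phosphorylation. With control-IP 2 left out, 5 genes passed the adjusted p in each direction, none of them among the 95 genes. The 59 genes passed a filter that required a peak everywhere, so the other 36 have no fitted difference.

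The 59 genes were centered near 0. Their median log2 difference of scaled scores, miR-222-IP minus control-IP, was -0.04, with an interquartile range of -0.20 to 0.20, and that of all genes fitted was 0.00, with a range of -0.23 to 0.25. The difference was above 0 for 26 genes and below 0 for 33. Standard errors were 0.34 to 0.54, and no difference reached 2 of its standard errors.

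The largest difference belonged to Ndufc2, an accessory subunit of complex I. It scored 63.5, 63.5 and 79.2 in control-IPs 1, 2 and 4, and 109 and 207 in the miR-222-IPs, all 3 controls below both miR-222-IPs before scaling. The scaled log2 difference was 0.53 (SE 0.36, limma adjusted p = 0.998, and p = 0.333 in the exact permutation within experiments, two-sided, of which 0.167 is the smallest possible), and 0.11 with the sum of the scores of all its peaks in place of the highest. Ndufa1, a small accessory subunit, scored 42.6, 37.3 and 36.3, and 60.6 and 102, with a difference of 0.48 (SE 0.38, limma adjusted p = 0.998), which was 0.28 to 0.75 when single libraries were left out and 0.25 with summed scores. Ndufa4, given above, differed by 0.42 (SE 0.40, limma adjusted p = 0.998), by 0.11 to 0.82 when single libraries were left out, and by -0.03 with summed scores. None of the 3 differences passed the test.

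The lowest difference belonged to Atp5e, the epsilon subunit of complex V. It scored 49.9, 91.6 and 46.8 in control-IPs 1, 2 and 4, and 51.0 and 55.0 in the miR-222-IPs. The groups overlapped before scaling, and the scaled log2 difference was -0.64 (SE 0.34, limma p = 0.0897, adjusted p = 0.998, exact permutation p = 0.167). It was -0.13 where scores were not scaled and -0.95 with summed scores. Sdha, with values given above, differed by -0.61 (SE 0.40, limma adjusted p = 0.998), and by -0.10 to -0.99 when single libraries were left out. Ndufb9, an accessory subunit of complex I, scored 74.4, 93.7 and 67.6, and 78.6 and 76.9, with -0.47 (SE 0.34, limma adjusted p = 0.998), and with 0.03 where scores were not scaled. Its peak also covers exons of the gene model Gm49356.

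**Figure D5:**
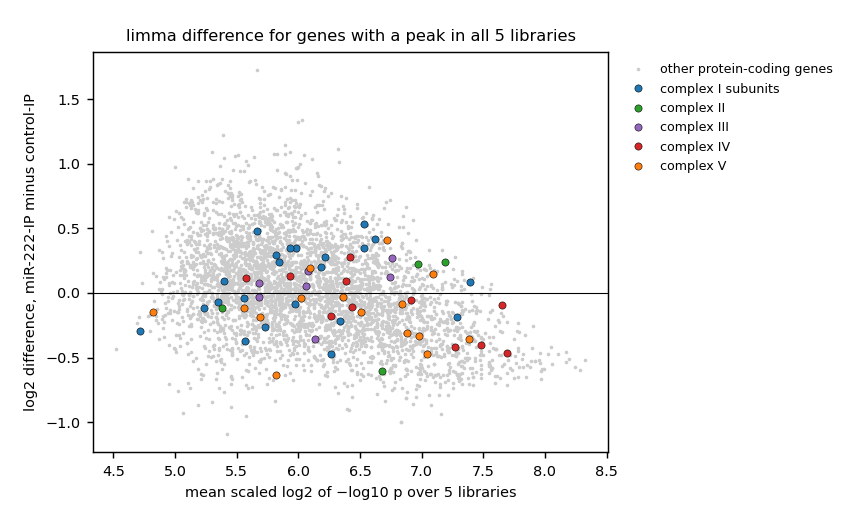
Log2 difference of scaled scores, miR-222-IP minus control-IP (vertical axis, limma), against the mean scaled log2 score over 5 libraries (horizontal axis), for 4159 genes with a peak in all 5 libraries. Oxidative phosphorylation genes are colored by complex and range from -0.64 to 0.53, and other protein-coding genes, in grey, drift below 0 at high scores.

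By complex the median log2 difference was 0.09 in complex I, 0.05 in complex II, 0.08 in complex III, -0.09 in complex IV and -0.14 in complex V. In complex V 12 of 15 genes were below 0, against 10 of 22 in complex I. These medians are descriptions, and the difference between complexes was not tested. The difference moved with the score itself: across the 4100 other genes the log2 difference and the mean score had a Spearman correlation of -0.38, across genes that share the same libraries, and in the 59 genes it was -0.08. Among genes split into 4 equal classes of mean score, in the top class the median was -0.23 for 1020 other genes and -0.09 for 20 oxidative phosphorylation genes. In the lowest class it was 0.13 for 1030 other genes and -0.12 for 10 of these genes. The part of score level in the difference between complexes was not tested.

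Within experiments, 6 of the 59 genes (10.2%) were above every control-IP of their experiment in both miR-222-IPs, where 15.7% of all genes fitted were. They are Ndufc2, Ndufs4, Sdhc, Uqcr10, Cox6c and Atp5f1. Below every control-IP of their experiment were 15 genes (25.4%), where 17.2% of all genes were, and 6 of the 15 belong to complex V. The 15 genes are Ndufa13, Ndufb8, Ndufb9, Ndufs7, Sdha, Uqcrq, Cox4i1, Cox6a1, Cox7a2l, Atp5a1, Atp5b, Atp5d, Atp5e, Atp5k and Atp5mpl. The counts depended on scaling and on single libraries: without scaling they were 19 above and 0 below, where 46.1% and 1.73% of all genes fitted were, and without control-IP 4, which leaves only the first experiment in the criterion, the count below was 33, where 30.6% of all genes were. The exact permutation reached its smallest p, 0.167, in 9 genes (15.3%), where 12.1% of all genes did.

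Other gene groups fitted in the same way had medians on both sides. The median log2 difference was -0.38 in 75 genes of cytosolic ribosomal proteins, -0.25 in 11 glycolysis genes, -0.15 in 8 tricarboxylic acid cycle genes, 0.16 in 25 genes of mitochondrial ribosomal proteins and 0.55 in 8 skeletal muscle markers. None of their genes passed an adjusted p of 0.05 in limma. All 8 muscle markers were above 0, and all 4 fitted macrophage and leukocyte markers were below 0, with a median of -0.54. Oxidative phosphorylation genes, at -0.04, lay between these lists, and the parts of the cell types in these values were not tested.

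Control-IP 2 stood apart from the other libraries, over these genes and over other protein-coding genes. Spearman correlations of scores between control-IP 2 and the others were 0.615 to 0.746, and those among the other 4 libraries 0.793 to 0.933, over the 59 to 76 genes that each pair shared. Over the other genes that each pair shared, these correlations were 0.568 to 0.624 and 0.643 to 0.861. The deviation of scaled scores in control-IP 2 from the gene's mean rose with the GC content of the exons, with a Spearman correlation of 0.50 over 59 genes and 0.29 over 4100 other genes. In the other libraries the correlation over the 59 genes was -0.28 to -0.02. The deviations of a gene cancel over the 5 libraries, so a rise in control-IP 2 lowers the others and these correlations are not independent of it. In 3 classes of the 59 genes from low to high GC content the median deviation in control-IP 2 was -0.09, 0.25 and 0.39 on the log2 scale. The median log2 difference, miR-222-IP minus control-IP, was 0.12, -0.06 and -0.12. Control-IP 2 is among the controls of that difference, so the 2 trends are not separate observations.

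Single genes show the size of this, named after their values were seen. Ndufs6, an accessory subunit of complex I, scored 101 in control-IP 2 and had no peak in control-IPs 1 and 4, with 37.0 and 71.2 in the miR-222-IPs. Sdhd, at 58.6 in control-IP 2, was at least 152 in the other 4 libraries. Atp5c1, the gamma subunit of complex V, scored 33.6 in control-IP 2, 66.6 and 75.0 in control-IPs 1 and 4, and 78.3 and 118 in the miR-222-IPs. GC content was 51.4%, 49.4% and 50.5% in these 3 genes, near the median of 50.2% of the group. Without control-IP 2 the median log2 difference of the 59 genes was 0.0034, and the range over leaving out each library in turn was -0.22 to 0.20.

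Peaks shared with other genes limit some values. In 19 of the genes a peak also covered exons of another gene, such as Tecr for Ndufb7, Mrpl47 for Ndufb5, Gabpa for Atp5j and the second Atp5o model for Atp5o, and the lists give no strand. Ndufb7, an accessory subunit of complex I, had scores of 85.8 in control-IP 2 and 26.3 in miR-222-IP 2, and no peak in the other 3 libraries. With peaks over more than 1 gene left out, 85.3% of the genes had a peak in at least 1 library and 61.1% in all 5.

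Control-IP 3 gave little resolution. Its list reached 44 of the 95 genes on the chromosomes it covers, up to position 47281488 on chromosome 18, and 43 of them (97.7%) lay under a peak, against 60.6% of the other genes there. The median peak over these genes was 75267 bp wide, far longer than a gene of this group. Its list covered 4 genes with no peak in the other libraries, Ndufa4l2, Ndufaf7, Ndufaf8 and Uqcrb. A wide peak does not show which of the genes under it gave its reads.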

How the data were processed

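RISC-IP RNA of MSC myocytes was sequenced in 6 libraries. The authors aligned reads with SOAPSplice to mm10 and ran macs2, with its default settings, on each library. The deposited −log10 p values are those over 20. The version of macs2 and any input track are not given in the sources used here. The part of the amount of a transcript in its peaks and scores was therefore not tested. The depth of each library is not given by these lists, so no counting error is given.

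Exons came from GENCODE M21 (GRCm38) and overlaps from bedtools 2.31.1. A gene's score was the highest −log10 p over its exons. Log2 scores were scaled by the median of ratios over 4159 genes and fitted in limma 3.58.1 (R 4.3.3) with condition and experiment, as in the study's formula, with Benjamini-Hochberg adjustment over all genes fitted. The exact permutation within experiments has 6 arrangements. Peaks of 5 libraries were merged where they touched. Sequences were read from GRCm38 with pysam 0.24.0. The limma script was tested on simulated data with the same 5 libraries. It called 17 of 100 genes with a planted log2 difference of 1 and 97 of 100 with 2. Differences of the oxidative phosphorylation genes, -0.64 to 0.53, were smaller than either, so the lack of calls does not show that they are absent.

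Members, lists, tests and the rule for names were chosen with earlier results of these data known. Names follow the 3 highest scaled scores per complex, the isoform sets and the 3 largest and 3 smallest log2 differences. Alternatives covered threshold, overlap, shared peaks, equal list length, score, scaling, missing peaks, the experiment term, transcript models, seed form and each library left out. A single gene is counted in the totals and not reported singly here.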

Additional observations from a re-analysis of the deposited data

How the results depend on the processing

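The share of genes with a peak in at least 1 library was 74.7% at −log10 p over 50, 75.8% with lists cut to the same length and 97.7% of 44 genes with control-IP 3 added, and the share with a peak in all 5 was 34.7% at −log10 p over 50. The median log2 difference was 0.46 without scaling, where all genes fitted had 0.51, and -0.22 to 0.20 with each library left out. Without the replicate block of experiment it was -0.09 and no gene was called. Genes above all controls of their experiment numbered 19 without scaling, 3 with summed scores, 2 of 29 with control-IP 3, and 8 to 38 with single libraries left out, including 15 without control-IP 1, 12 without control-IP 2 and 38 of 60 without miR-222-IP 1, where 49.7% of all genes were. Genes below numbered 0 without scaling, 5 with control-IP 3, and 18 to 33 with single libraries left out, including 33 without control-IP 4 and 29 without miR-222-IP 2. Without miR-222-IP 1, control-IP 4 or miR-222-IP 2 the criterion rests on 1 experiment, so these counts are not comparable with those over 2. Median coverage was 30.2% at −log10 p over 50, 30.9% with lists of the same length and 36.4% to 45.0% with single libraries left out. With the longest coding transcript 24.8% of 5'UTR and 42.7% of 3'UTR bases were covered. Seed matches were in 9 genes for the 6-mer and 3 for the 7-mer with A. Ndufa4 turned to -0.030 with summed scores and Ndufb9 to 0.031 without scaling. The cause of these changes was not tested. No alternative called a gene of the group.

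Scores top out near 350, the depth of each library is not known here, each experiment has 1 miR-222-IP, and a missing peak shows only that no enrichment passed 20.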
